A study of Mus musculus with 2 samples.

Results

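The 9 genes described here are the mouse receptors, co-receptors and ligands of vascular endothelial growth factor (VEGF): Kdr, Flt1 and Flt4, the neuropilins Nrp1 and Nrp2, and Vegfa, Vegfb, Vegfc and Vegfd. They were taken by symbol, and each was 1 row among the 54838 genes of the files. They were measured by droplet single-cell RNA sequencing of endothelial cells sorted from the adrenal gland. The libraries were 1 of wild type (WT) and 1 of the genotype labelled VEGF/LysM, both from female mice aged 12 weeks. The series describes the comparison as one of macrophage VEGF-A. LysM is lysozyme M (Lyz2), a gene of myeloid cells, but the alleles behind the label and how many animals went into each library were not stated in the sources used here. In both groups the glands were digested with a protease in the cold, and viable CD31+ CD45- cells were sorted.

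VEGF-A signals in blood vessels mainly through KDR (VEGFR2), while FLT1 (VEGFR1) binds VEGF-A, VEGF-B and placental growth factor tightly and acts largely as a trap. FLT4 (VEGFR3) is the main receptor of VEGF-C and VEGF-D and is best known in lymphatic vessels, but is also made by fenestrated and sprouting blood vessels. Neuropilins have little signalling activity of their own: NRP1 assists VEGF-A at KDR and is a semaphorin receptor, and NRP2 assists VEGF-C at FLT4. In endocrine glands VEGF-A from the hormone-producing cells maintains capillaries whose pores, the fenestrae, are closed by a diaphragm made of PLVAP.

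With 1 library in each group no replicate check was possible and neither p-values nor standard errors are given: each difference between WT and VEGF/LysM is one between 2 libraries. The WT library held 6276 barcodes with 8606348 unique molecules (UMIs, median 1174.5 a barcode), and the VEGF/LysM library 3807 barcodes with 10323972 UMIs (median 2336). After filtering, 5691 WT and 3540 VEGF/LysM cells were endothelial. The libraries had 10 barcodes in common, 8 of them among the cells kept. Levels are UMIs of a gene per 1000000 UMIs (CPM) summed over the cells of a type. Ranges in brackets are exact 95% intervals that cover counting error only, and log2 values are ratios of CPM. Where a pair of values is given without names, the first is WT and the other VEGF/LysM. The counts are not scaled by length, so levels are compared between cells and not between genes.

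The cells were clustered without the 9 genes, and clusters were named from markers. Most endothelial cells (4220 WT, 2227 VEGF/LysM) lay in clusters with at least 700 CPM of Plvap and no other name, called Plvap-high here. Continuous-capillary-like cells (804 and 746; Cd36, Car4) had 168 and 73.6 CPM of Plvap. Arterial-like cells (334 and 314; Sox17, Gja5, Fbln5) and tip-like cells (201 and 121; Apln, Kcne3, Kcnj8), named for sprouting vessel ends, were also present. Venous-like (17 and 25) and lymphatic-like (12 and 10) cells were too few for a comparison of libraries, so their levels are given only. All 7 pan-endothelial markers were detected in each of the 6 types. Among cells that the gate should have removed, 82 and 73 were myeloid-like and 31 and 41 adrenocortical-like. All 7 pan-endothelial markers were detected in these cells too, so their detection alone does not set the vessel types apart. The pan-endothelial markers together gave 2330.2 and 1686 CPM in the adrenocortical-like cells, against 10182 and 9732 CPM in endothelial cells. The shares of cells with each gene in adrenocortical-like cells (median depth 1626 and 4749 UMIs) are given below as the background from other cells.

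The promoters of 3 members are shown, because Flt1 and Nrp2 ran in opposite directions over the Plvap-high clusters and Vegfc was highest in arterial-like cells. Each stretch is the RefSeq window that starts 250 bases before the gene's start (GRCm38.p6), ended before the gene's first GENCODE M21 exon, and is printed 5′ to 3′ on the gene's strand. Capitals mark GGAA or TTCC, the core that ETS factors bind, searched on both strands.
Flt1, chr5:147726012-147726261, minus strand: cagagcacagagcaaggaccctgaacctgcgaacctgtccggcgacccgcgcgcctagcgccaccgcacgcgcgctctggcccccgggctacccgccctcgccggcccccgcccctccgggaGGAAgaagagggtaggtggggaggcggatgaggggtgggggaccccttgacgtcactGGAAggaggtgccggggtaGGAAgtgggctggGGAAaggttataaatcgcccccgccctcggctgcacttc
Nrp2, chr1:62703067-62703284, plus strand: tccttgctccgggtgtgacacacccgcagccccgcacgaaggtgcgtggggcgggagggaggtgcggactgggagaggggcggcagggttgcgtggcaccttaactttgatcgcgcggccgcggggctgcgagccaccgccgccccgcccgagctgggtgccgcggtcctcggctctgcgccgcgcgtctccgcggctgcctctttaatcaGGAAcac
Vegfc, chr8:54077282-54077531, plus strand: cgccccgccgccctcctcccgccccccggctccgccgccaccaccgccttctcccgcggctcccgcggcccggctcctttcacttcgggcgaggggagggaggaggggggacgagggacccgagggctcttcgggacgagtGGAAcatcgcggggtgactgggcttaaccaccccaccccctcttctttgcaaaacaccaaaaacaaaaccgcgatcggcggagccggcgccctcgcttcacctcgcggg
The Flt1 stretch held 4 of these cores, and 33.4% of 32851 promoter windows of that length held at least as many. Nrp2 (218 bases) and Vegfc held 1 each, and 90.9% and 93.4% of windows of their lengths held at least 1. For the GC box GGGCGG or CCGCCC the order differed: Nrp2 held 4 matches, a number reached by 2.56% of windows of its length, Flt1 held 3 (8.47%) and Vegfc 2 (16.7%). These matches describe letters and not binding.

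The receptors divided the vessel types in different ways. Over the 4 larger types (Plvap-high, capillary, tip-like and arterial-like), 25% of the 3654 genes with at least 1000 UMIs had a highest level at least 2-fold above the lowest in both libraries. Of the 6 members with that many UMIs, Kdr, Flt4, Nrp1, Nrp2 and Vegfc did so, and Flt1 did not. Kdr, which encodes the main signalling receptor (ENSMUSG00000062960, chr5:75932827-75978458), was highest in Plvap-high cells, at 2623 CPM (WT) and 2520.2 CPM (VEGF/LysM). Capillary cells had 2228 and 1897 CPM and tip-like cells 2089 and 1809 CPM. Arterial-like cells were lowest of the 4, at 931 CPM (839 to 1030.0) and 805 CPM (742 to 871). Plvap-high cells thus carried 2.82 and 3.13 times the arterial-like level of Kdr. Capillary and tip-like intervals overlapped in both libraries, and the other neighbours among these 4 were apart.

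Flt1, the trap receptor (ENSMUSG00000029648, chr5:147561604-147726011), had another order, in which arterial-like cells came right after Plvap-high cells. Plvap-high cells had 3624 CPM (WT) and 3985 CPM (VEGF/LysM), against 3258 and 3267 CPM in arterial-like cells. Tip-like cells had 2251 and 2118 CPM and capillary cells 2051 and 1758 CPM. Plvap-high cells had 1.77 and 2.27 times the capillary level of Flt1, but 1.11 and 1.22 times the arterial-like level. Arterial-like cells therefore combined the lowest Kdr of the 4 types with the second-highest Flt1. Flt1 was detected in 93.3% and 86.6% of thinned arterial-like cells and Kdr in 56.99% and 48.7%, against 33.3% and 30.3% and 37.5% and 33.3% of adrenocortical-like cells (unthinned arterial-like 92.2% and 94.6%, and 58.4% and 64.6%). The Kdr shares lay within the adrenocortical-like intervals of 18.8 to 59.4% and 17.96 to 51.8%, and the Flt1 shares lay above theirs. With only 24 and 33 adrenocortical-like cells and such wide intervals, arterial-like Kdr could not be told apart from background by this measure. Unthinned, Kdr was detected in 38.7% and 43.9% of adrenocortical-like cells, which had median depths of 1626 and 4749 UMIs. Arterial-like cells had median depths of 1085.5 and 2099 UMIs. Gene counts do not separate the membrane-bound and soluble forms of Flt1.

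Flt4, the VEGF-C receptor (ENSMUSG00000020357, chr11:49609263-49652739), was concentrated in Plvap-high and tip-like cells, at 425 and 369.7 CPM in the former and 457 and 332 CPM in the latter. Capillary cells had 128 CPM (107 to 152) and 60.9 CPM (49.8 to 73.7). Arterial-like cells had 119.8 CPM (88.3 to 159) and 117 CPM (93.96 to 144). The log2 ratio of Plvap-high over capillary cells was 1.73 (1.48 to 2.00) in WT and 2.60 (2.32 to 2.90) in VEGF/LysM. With each cell thinned to 1000 UMIs, Flt4 was detected in 34.3% and 28.6% of Plvap-high cells, 9.38% and 4.98% of capillary cells and 8.29% and 9.39% of arterial-like cells (unthinned 38.96% and 54.3%, 12.9% and 12.6%, and 12.9% and 23.9%). Thinning evens out median depths of 1194 and 2421 UMIs in Plvap-high, 915 and 1733 in capillary and 1085.5 and 2099 in arterial-like cells, and left 2819 and 2091, 352 and 662, and 193 and 277 cells. In adrenocortical-like cells, which should lack it, the share was 8.33% (1.03 to 27.00%) of 24 WT cells and 0 of 33 VEGF/LysM cells, which allows up to 9.09%. The capillary shares and the WT arterial-like share lay within these limits, and the VEGF/LysM arterial-like share lay just above the limit. With so few adrenocortical-like cells, the low Flt4 signal of capillary and arterial-like cells could not be told apart from background.

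Nrp2, the VEGF-C co-receptor (ENSMUSG00000025969, chr1:62703285-62818695), followed Flt4 in being high in tip-like (753 and 680.3 CPM) and Plvap-high cells (751 and 629 CPM), whose intervals overlapped. Capillary cells had an intermediate level of 381 and 345 CPM, against 121 and 145 CPM in adrenocortical-like cells. Arterial-like cells had 97.3 CPM (69.2 to 133) and 95.96 CPM (75.2 to 121), which is 7.71 and 6.56 times below Plvap-high cells. Nrp2 was detected in 8.81% and 10.1% of thinned arterial-like cells and in 16.7% and 21.2% of the 24 and 33 adrenocortical-like cells. With so few of the latter, its arterial-like signal could not be told apart from background. In capillary cells the shares were 31.2% and 25.1%, within the adrenocortical-like intervals of 4.74 to 37.4% in WT and 8.98 to 38.9% in VEGF/LysM, and in Plvap-high cells 47.7% and 39.2% (unthinned 49.4% and 62.4%). Nrp2 overlaps Gm37121 on its own strand (161 and 134 UMIs in the libraries) and the antisense Gm29083 (3 and 2 UMIs), so a small part of these reads is uncertain.

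Nrp1, the VEGF-A co-receptor (ENSMUSG00000025810, chr8:128358604-128503363), was the only member besides Nrp2 to peak in tip-like cells in both libraries. Tip-like cells had 1850.1 CPM (1695 to 2015) and 1944 CPM (1803 to 2093), and Plvap-high cells 1570.5 and 1692 CPM. Capillary cells had 1227 and 1321 CPM and arterial-like cells 921 and 690.2 CPM, and the intervals of all 4 types were apart in both libraries. The tip-like excess of Nrp1 over Plvap-high cells was small, at log2 0.24 (0.11 to 0.36) and 0.20 (0.088 to 0.31). Kdr and Flt1 were lower in tip-like than in Plvap-high cells, with log2 ratios of -0.33 (-0.45 to -0.21) and -0.48 (-0.59 to -0.37) for Kdr and -0.69 (-0.80 to -0.57) and -0.91 (-1.02 to -0.81) for Flt1.

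**Figure D1:**
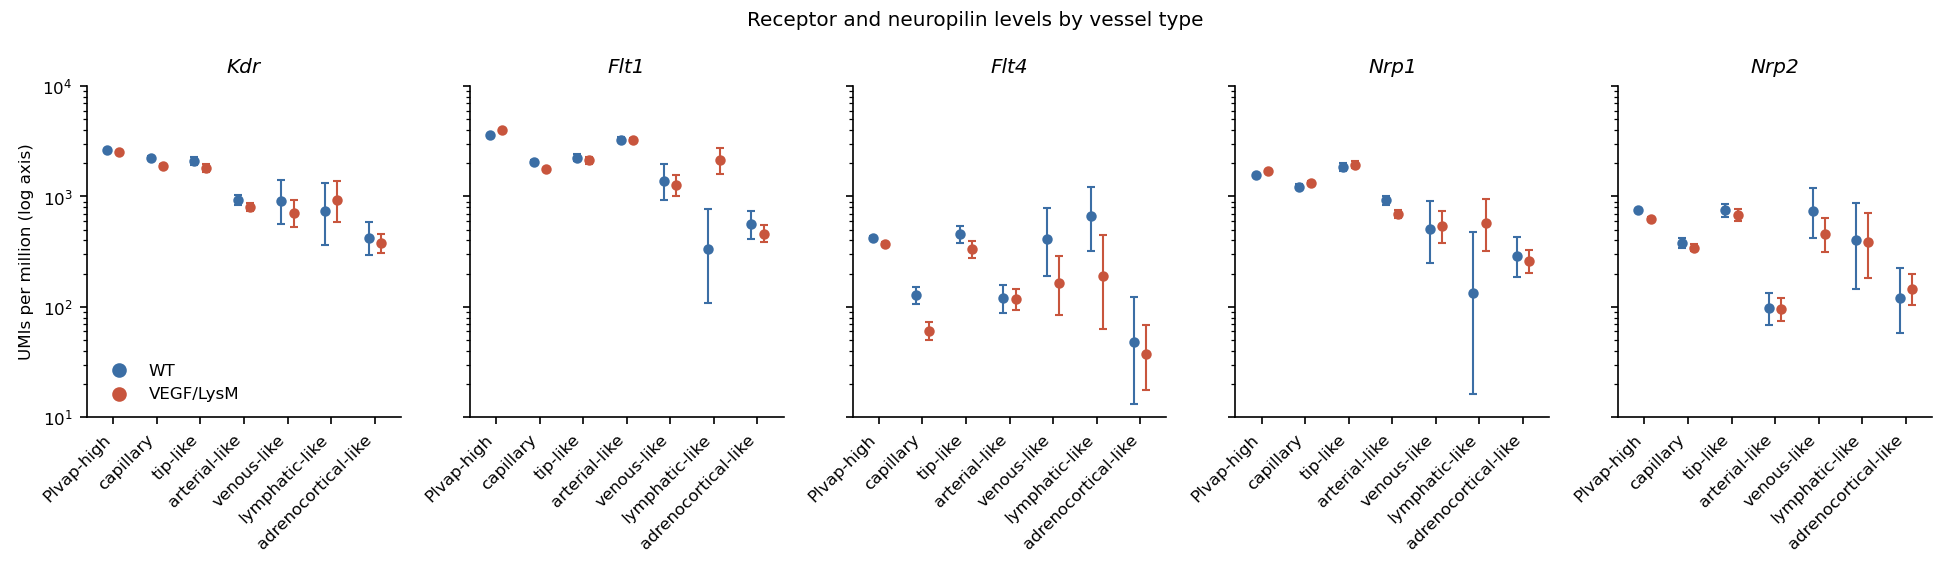
Levels of Kdr, Flt1, Flt4, Nrp1 and Nrp2 (CPM, log axis) by cell type in the WT (blue) and VEGF/LysM (red) libraries; points are summed levels and bars exact 95% Poisson intervals. Arterial-like cells are low in Kdr, Flt4 and Nrp2 but near the Plvap-high level of Flt1, and adrenocortical-like cells show the background from other cells.

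Within the Plvap-high cells the receptors were not uniform. In both libraries Flt1 was highest in cluster 9 and lowest in cluster 8, and Nrp2 and Flt4 were lowest in cluster 9. Clusters 9 (led by Npr3, Cyp26b1 and Esm1) and 3 (led by Gzmk and Esm1) had the most Flt1, at 5534 and 5571 CPM in cluster 9 and 5097 and 5145 CPM in cluster 3. Cluster 8 (led by Oit3, Sema3d and Bgn) had the least, at 2304 and 2504 CPM. Nrp2 ran the other way, from 290.4 and 272 CPM in cluster 9 and 419.7 and 390.4 CPM in cluster 3 to 911 and 831 CPM in cluster 8. The highest Nrp2 levels were in cluster 2 (1028 and 842 CPM; led by Sdk1, Chrm3 and Edil3) and cluster 11 (1016 and 865 CPM), and cluster 1 (led by Igfbp5 and Gchfr) was between at 723 and 692 CPM. The log2 ratio of cluster 9 over cluster 8 was 1.26 (1.20 to 1.33) and 1.15 (1.08 to 1.23) for Flt1, and -1.65 (-1.84 to -1.46) and -1.61 (-1.82 to -1.41) for Nrp2.

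Flt4 sided with Nrp2: cluster 9 had 266 and 251 CPM and cluster 3 343 and 310.2 CPM, while clusters 1, 2, 8 and 11 lay between 404 and 518 CPM. Kdr sided with Flt1, with its highest level of the 6 clusters in cluster 3 (3420.0 and 2962 CPM) and its lowest in cluster 8 (2231 and 2049 CPM). Nrp1 varied least, from 1340.0 to 1962 CPM over all 12 values of these 6 clusters. Across these 12 profiles (6 clusters in 2 libraries), Pearson's r of log2(CPM + 10) was 0.94 for Flt4 with Nrp2, -0.91 for Flt1 with Nrp2, -0.86 for Flt1 with Flt4 and 0.80 for Kdr with Flt1. The profiles share 2 libraries and their cells, so these are descriptions. Immediate-early genes (Fos, Fosb, Egr1) led cluster 11 and were also the marker list with the highest score in cluster 3. Cluster 11 lay with clusters 2 and 8 in Nrp2, and cluster 3 with cluster 9. Median depth over both libraries ran from 1036 UMIs in cluster 1 to 2014 in cluster 11, with 1216 in cluster 9 and 1403 in cluster 8.

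**Figure D2:**
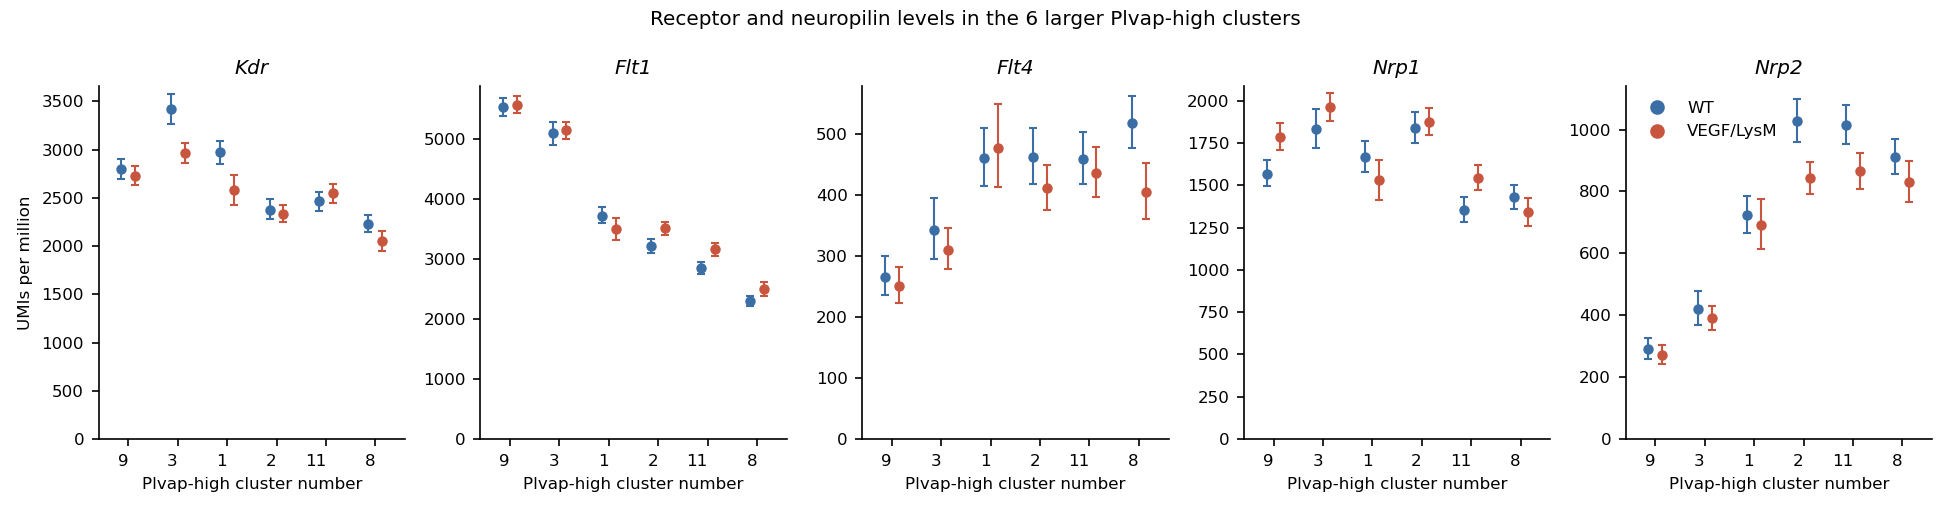
Levels of the 5 receptor genes (CPM, linear axes from 0) in the 6 larger Plvap-high clusters, ordered by WT Flt1; blue is WT, red VEGF/LysM, bars are exact 95% Poisson intervals. Flt1 is highest in cluster 9 and lowest in cluster 8, while Flt4 and Nrp2 are lowest in clusters 9 and 3.

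By the naming rule, the 5 genes whose levels most resembled each receptor were found over 12 profiles (6 vessel types in 2 libraries), 4 of which held under 50 cells. For Kdr they were Snrk (r = 0.91), Adgrl2, 2610203C22Rik, Mob3c and Fscn1. For Flt1 they were Gm8995 (0.99), Il10rb, Parvb, Rspry1 and Grrp1, and for Flt4 Maf (0.96), Piezo2, Itgb3, Utp11 and Tmem176b. For Nrp1 they were Rcsd1 (0.97), Trafd1, Gnb2, Nin and Ppic, and for Nrp2 Gngt2 (0.90), Arhgef7, Arhgap29, Dapk2 and Sh3bp5. Over the 12 Plvap-high cluster profiles, a set chosen after the levels were seen, Flt1 was closest to Npr3 (0.98), Serpine2, Plat, Esm1 and Crispld1. There Nrp2 was closest to Sirpa (0.98), Creb5, Hmga2, Lrrc8c and Marcksl1, and Flt4 to Nid1 (0.98), Stab1, Tdrp, Cldn5 and Sirpa.

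The rarer vessels add a contrast. The lymphatic-like cluster had a log2 excess of 4.976 for the lymphatic list and 2.625 for the venous list, so it was mixed in markers. The venous-like cluster had 1.867 for the venous list and 1.484 for the lymphatic list. The venous marker Vwf was 1199 and 1232 CPM in lymphatic-like and 183 and 96.3 CPM in venous-like cells. In the lymphatic-like cluster Flt1 was 333 and 2118 CPM and Flt4 666 and 193 CPM, while the lymphatic chemokine Ccl21a was 3864 and 231 CPM. A stricter set was taken after these values were seen: the 10 endothelial cells (7 WT, 3 VEGF/LysM) with UMIs of at least 2 of the 6 genes Prox1, Mmrn1, Ccl21a, Reln, Pdpn and Thy1. Of these, 6 WT and 2 VEGF/LysM cells lay in the lymphatic-like cluster, 1 WT cell in the Plvap-high clusters and 1 VEGF/LysM cell among the arterial-like cells. The lymphatic markers in arterial-like cells gave 1 UMI (1 of 7 markers) in WT and 67 UMIs (7 of 7) in VEGF/LysM. Together the 10 cells had 1085 CPM of Flt4 (653 to 1694; 19 UMIs) and as many of Kdr. Flt1 was 228 CPM (62.2 to 585), Nrp1 114 CPM (13.8 to 412) and Nrp2 285 CPM (92.7 to 666). The Flt4 interval lay above the Plvap-high level, and those of Flt1 and Nrp1 lay below it. Flt4 reached a like level, 979 CPM (655 to 1406), in 13 WT cells led by the sinusoidal genes Stab2, Clec4g and Fcgr2b; the VEGF/LysM library held 1 such cell. Venous-like cells had 917 and 715 CPM of Kdr, 1376 and 1265 CPM of Flt1 and 505 and 536 CPM of Nrp1, each below the Plvap-high level in both libraries. Their Nrp2, at 734 and 454 CPM, had intervals that overlapped those of Plvap-high cells. Venous-like cells were not low in Plvap, with 2293 and 2737 CPM. The 6 larger Plvap-high clusters had 1154 to 1595 CPM of it over both libraries.

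Of the ligands, Vegfc stood out by cell type. Vegfc (ENSMUSG00000031520, chr8:54077606-54187096) encodes the ligand of FLT4. Arterial-like cells had 626 CPM (551 to 709) and 610.0 CPM (556 to 668). Plvap-high cells had 31.5 and 28.7 CPM, capillary cells 35.7 and 26.7 CPM, and tip-like cells only 2 and 1 UMIs. Arterial-like cells, 5.87% and 8.87% of endothelial cells, held 53.6% of endothelial Vegfc UMIs in WT and 66.1% in VEGF/LysM. The log2 ratio of Plvap-high over arterial-like cells was -4.31 (-4.60 to -4.03) and -4.41 (-4.68 to -4.15). In thinned cells Vegfc was detected in 35.8% and 34.7% of arterial-like cells and 2.59% and 3.01% of Plvap-high cells (unthinned 37.7% and 50%, and 3.25% and 5.43%). It was detected in 0 of 24 and 0 of 33 thinned adrenocortical-like cells, which allows up to 12.5% and 9.09% (unthinned 3.23% and 7.32%). Over all endothelial cells, Vegfc had up to 11 UMIs in a WT cell and 17 in a VEGF/LysM cell. Both arterial-like clusters carried it, at 659.8 and 633 CPM in the larger and 480.4 and 441 CPM in the smaller. Of the 4 larger types, the one with the most Vegfc thus had the least Nrp2. Among the 6 larger Plvap-high clusters Vegfc was highest in cluster 9, at 70.2 and 55.4 CPM.

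Vegfd (ENSMUSG00000031380, chrX:164373378-164402650), the other FLT4 ligand, was rare but had the same lean, with 9 and 20 of 21 and 31 endothelial UMIs in arterial-like cells (22.5 and 26.3 CPM). Plvap-high cells had 1.27 and 0.521 CPM of Vegfd. Vegfb (ENSMUSG00000024962, chr19:6982473-6987651), a ligand of FLT1, showed no order among the larger types: its levels ran from 11.2 to 24.6 CPM and all neighbouring intervals overlapped. Vegfa (ENSMUSG00000023951, chr17:46016993-46032369), the ligand of KDR, had 44 endothelial UMIs in each library. Its level was 14.97 and 17.1 CPM in arterial-like, 5.94 and 6.96 CPM in capillary and 5.79 and 3.13 CPM in Plvap-high cells, with 0 UMIs in tip-like cells (3 counts would be 10.6 and 8.30 CPM). Adrenocortical-like cells had 243 CPM (148 to 375) and 160.0 CPM (116 to 216) of Vegfa. Per 100 UMIs of adrenocortical markers there were 2.69 and 2.08 Vegfa UMIs in those cells, and 1.64 and 2.76 in capillary cells. The same ratio was 16.0 and 13.6 in Plvap-high and 31.6 and 43.3 in arterial-like cells, above that of the adrenocortical-like cells themselves. The steroid gene Star was detected in 4 of 43 WT and 4 of 42 VEGF/LysM endothelial cells with Vegfa, which were deeper than the rest (median 1407 against 1152 UMIs in WT, and 3060.5 against 2278.5). The part of cortical RNA in endothelial Vegfa was not tested. In myeloid-like cells Vegfa had 0 UMIs in both libraries (3 counts would be 11.2 and 6.91 CPM), so the genotype could not be checked in them. Pgf, the remaining ligand gene of the list, was below 50 UMIs and was not measured.

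**Figure D3:**
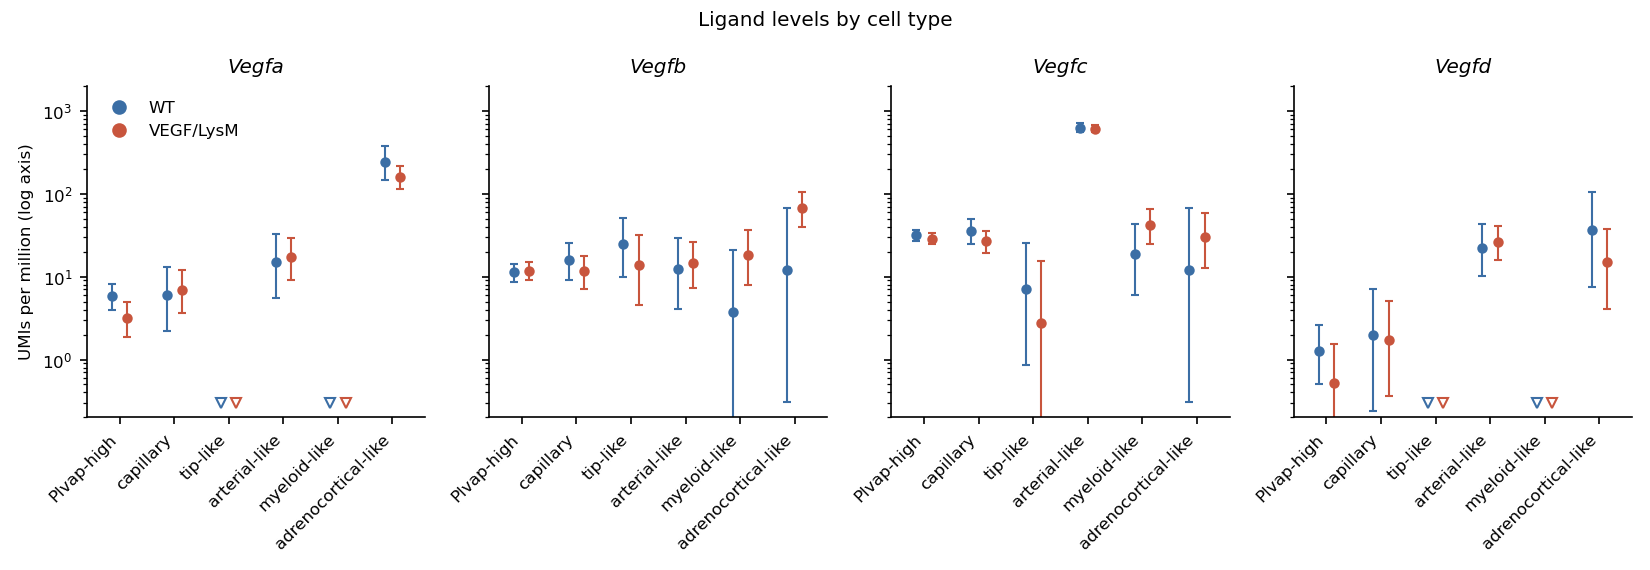
Levels of the 4 ligands (CPM, log axis) in the larger vessel types and in myeloid-like and adrenocortical-like cells; blue is WT, red VEGF/LysM, bars are exact 95% Poisson intervals that may run below the axis, and open triangles mark 0 UMIs. Vegfc is 626 and 610.0 CPM in arterial-like cells of WT and VEGF/LysM, and Vegfa is highest in adrenocortical-like cells.

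The receptors were also read per cell. In Plvap-high cells thinned to 1000 UMIs (2819 WT and 2091 VEGF/LysM cells, with 1401 and 136 shallower cells left out), Kdr was detected in 89.4% and 87.5%, Flt1 in 92.1% and 94.3% and Nrp1 in 72.7% and 73.3% (unthinned 90.9% and 95.6%, 94.4% and 98.5%, and 77.01% and 89.1%). Both Kdr and Flt1 were detected in 82.4% and 82.9%. The product of the single shares was 82.3% and 82.5%. With single shares this high, observed over product could only lie between 0.990 and 1.09 in WT and between 0.991 and 1.06 in VEGF/LysM, so a ratio near 1 tells little for this pair. Nrp1 was detected in 73.6% of WT cells with Kdr and 65.3% of those without, and in 74.5% and 64.5% in VEGF/LysM. Nrp2 was detected in 47.1% of WT cells with Flt1 and 54.3% of those without, and in 38.9% and 43.7% in VEGF/LysM. Over all 10 pairs of the 5 genes in Plvap-high cells of both libraries, observed over product ran from 0.988 to 1.10. Over the same pairs it ran from 0.861 to 1.16 in tip-like, 0.725 to 1.16 in capillary and 0.710 to 1.32 in arterial-like cells, where some single shares are low. The top of the Plvap-high range was Flt4 with Nrp2: 17.9% (16.5 to 19.4%) of WT cells had both against a product of 16.4%, and 12.1% (10.7 to 13.5%) of VEGF/LysM cells against 11.2%. The VEGF/LysM interval held the product. Within single clusters the ratio for this pair was 1.03 and 1.04 in cluster 8, 1.05 and 1.05 in cluster 2, and 1.35 and 0.96 in cluster 9. Nrp2 and Esm1, a gene of tip cells and of clusters 9 and 3, fell short of their product, at 10.96% against 14.2% in WT and 11.96% against 14.99% in VEGF/LysM. Of Esm1-negative and Esm1-positive cells, Nrp2 was detected in 52.2% and 36.9% in WT, and in 44.1% and 31.2% in VEGF/LysM.

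The mean number of the 5 genes detected in a thinned cell was 3.36 in WT and 3.23 in VEGF/LysM for Plvap-high cells, 3.18 and 3.13 for tip-like cells and 2.69 and 2.57 for capillary cells. Arterial-like cells had 2.22 and 2.00, and adrenocortical-like cells 1.33 and 1.03. All 5 genes were seen in 10.9% and 7.51% of Plvap-high cells, 12.9% and 4.96% of tip-like cells and 1.42% and 0.453% of capillary cells. Kdr and Flt1 together were found in 54.4% and 45.1% of arterial-like cells.

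**Figure D4:**
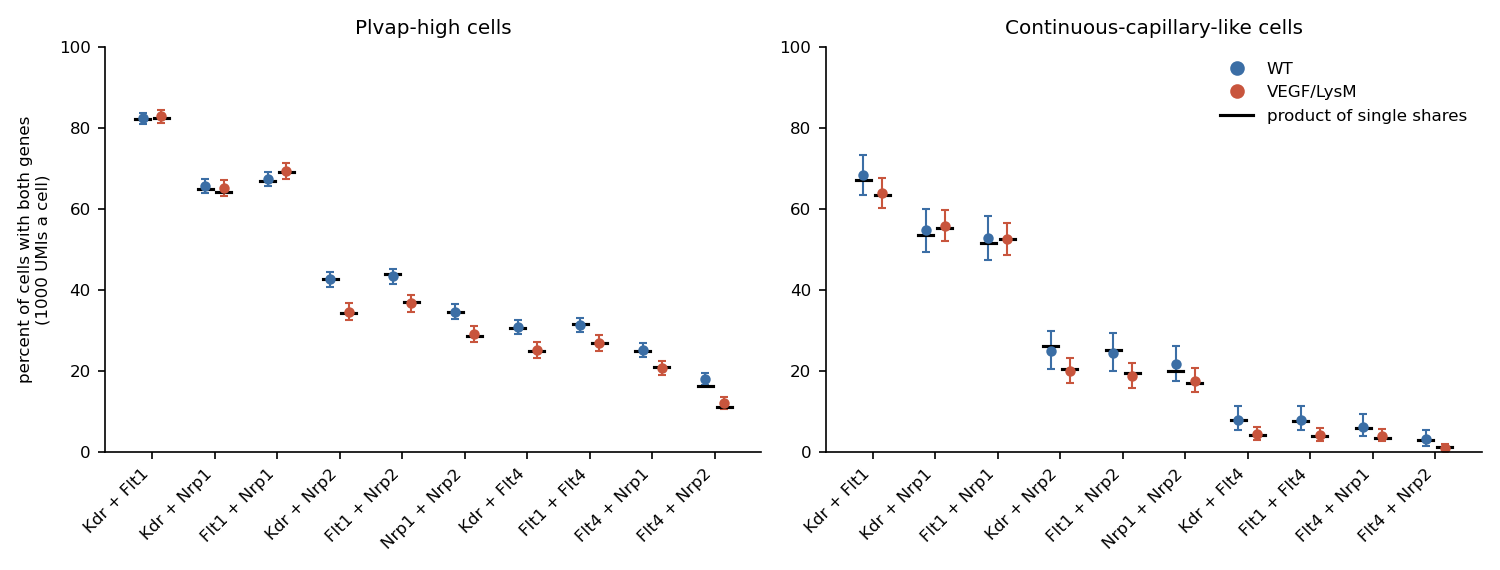
Percent of cells with at least 1 UMI of both genes of a pair after thinning to 1000 UMIs, in Plvap-high (left) and continuous-capillary-like cells (right); points with exact 95% binomial intervals, blue WT and red VEGF/LysM, black bars the product of the single shares. Observed shares sit on or near the product, which the high single shares of Kdr and Flt1 leave little room to depart from, with Flt4 and Nrp2 slightly above it in Plvap-high cells.

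The members were then compared between the libraries. A gene with at least 50 UMIs over both libraries was counted as lower or higher in VEGF/LysM when its log2 ratio was beyond 0.32 in size. In all endothelial cells 2 of the 9 members were lower, as were 11.4% of 12287 genes, and 0 were higher, as were 9.85% of genes. The lower members were Flt4, at 367 and 278 CPM (log2 -0.40, -0.48 to -0.32), and Nrp2, at 661 and 525 CPM (log2 -0.33, -0.39 to -0.27). Kdr was 2439 and 2181 CPM (log2 -0.16, -0.19 to -0.13). Flt1 was 3291 and 3333 CPM (log2 0.018, -0.0060 to 0.043), and Nrp1 1485 and 1522 CPM (log2 0.035, -0.0011 to 0.072). With vessel types weighted alike in both libraries, the values of Flt4 and Nrp2 were -0.26 and -0.24, short of that threshold. With median-ratio scaling, which moves every log2 ratio up by 0.032, 1 member was lower and 2 were higher. Plvap-high cells were 74.2% of WT and 62.9% of VEGF/LysM endothelial cells. Vegfc was 63.03 and 78.6 CPM (log2 0.32, 0.15 to 0.49), just under the threshold, and -0.081 with types weighted alike. Vegfa (log2 -0.27, -0.90 to 0.37), Vegfb (-0.041, -0.45 to 0.37) and Vegfd (0.29, -0.55 to 1.17) had intervals that held 0.

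In Plvap-high cells 1 of 8 measured members was lower by that threshold (12% of genes) and 0 were higher (8.59%). That was Vegfa, on 32 and 18 UMIs (log2 -0.89, -1.81 to -0.013). Flt4 had a log2 ratio of -0.20 (-0.29 to -0.12) there, Nrp2 -0.25 (-0.32 to -0.19), Kdr -0.058 (-0.091 to -0.024), Flt1 0.14 (0.11 to 0.16) and Nrp1 0.11 (0.065 to 0.15). Because marker genes of other types were among the leading genes of some Plvap-high clusters, the values were also taken cluster by cluster. Nrp2 was lower in VEGF/LysM in each of the 6 clusters, from -0.29 in cluster 2 to -0.064 in cluster 1, and the interval excluded 0 in clusters 2 and 11. In the remaining Plvap-high cells (99 WT, 60 VEGF/LysM) it was -0.62 (-1.07 to -0.17) and Kdr -0.56 (-0.82 to -0.31), both past the threshold, with Flt4 at -0.25, Flt1 at 0.17 and Nrp1 at -0.27. These cells form 5 subclusters that the libraries fill unequally, with 20 WT and 0 VEGF/LysM cells in 1 and 17 and 28 in another, so their mix and the level within them cannot be told apart there. In the 6 clusters Kdr ran from -0.21 in cluster 3 to 0.047 in cluster 11. Flt4 was lower in 5 of 6, with cluster 8 at -0.36 (-0.56 to -0.16) and cluster 1 at 0.052 (-0.20 to 0.30). Flt1 ran from -0.089 in cluster 1 to 0.15 in cluster 11. Vegfb and Vegfc had log2 ratios of 0.074 (-0.44 to 0.59) and -0.14 (-0.45 to 0.18) in Plvap-high cells.

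In capillary cells 2 of 6 measured members were lower (16.5% of genes) and 0 higher (13.7%). They were Flt4, at log2 -1.07 (-1.46 to -0.69) on 129 and 105 UMIs, where its signal could not be told apart from background, and Vegfc, at -0.42 (-1.08 to 0.25) on 36 and 46 UMIs. The capillary Vegfc value was 0.18 at a clustering resolution of 1.6, so its direction depended on the clustering. Genes of Plvap-high cells differed in the same direction as Flt4 there: the 5 fenestrated markers, all detected in both libraries, together had 818 and 273 CPM, and Plvap among them 168 and 73.6 CPM. Flt4 was also lower in VEGF/LysM in the myeloid-like cells (254 and 147 CPM), which carried 5443 and 5054 CPM of pan-endothelial markers. Of thinned WT capillary cells, Plvap was detected in 33.3% of the 33 with Flt4 and 9.72% of the rest. The part of RNA from Plvap-high cells in this difference was not tested. Kdr, Flt1, Nrp1 and Nrp2 had log2 ratios of -0.23, -0.22, 0.11 and -0.14 in capillary cells.

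In arterial-like cells 1 of 6 members was lower (17.8% of genes) and 0 higher (16.3%). That was Nrp1, at log2 -0.42 (-0.61 to -0.22) on 369 and 525 UMIs, with -0.40 in the larger arterial-like cluster and -0.33 in the smaller. Its thinned detection was 54.9% and 45.1% in arterial-like cells and 37.5% and 18.2% in adrenocortical-like cells (unthinned 58.98% and 65.9%, and 41.9% and 39.02%). The WT arterial-like share lay within the adrenocortical-like interval of 18.8 to 59.4%, and the VEGF/LysM share lay above that of 6.98 to 35.5%. With so few adrenocortical-like cells, the WT arterial-like Nrp1 share could not be told apart from background. Arterial-like Flt1 (0.0037, -0.094 to 0.10) and Vegfc (-0.038, -0.26 to 0.19) had intervals around 0, and Kdr was -0.21 (-0.40 to -0.020). Flt4 was -0.034, and -0.12 without the VEGF/LysM cell that carried lymphatic genes. In tip-like cells 1 of 5 members was lower (17.4% of genes) and 0 higher (17.3%): Flt4, at -0.46 (-0.83 to -0.093). That value was under the threshold with the stricter cell filter (-0.26) and without doublet removal (-0.23). Each of these shares of members rests on 5 to 9 genes.

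**Figure D5:**
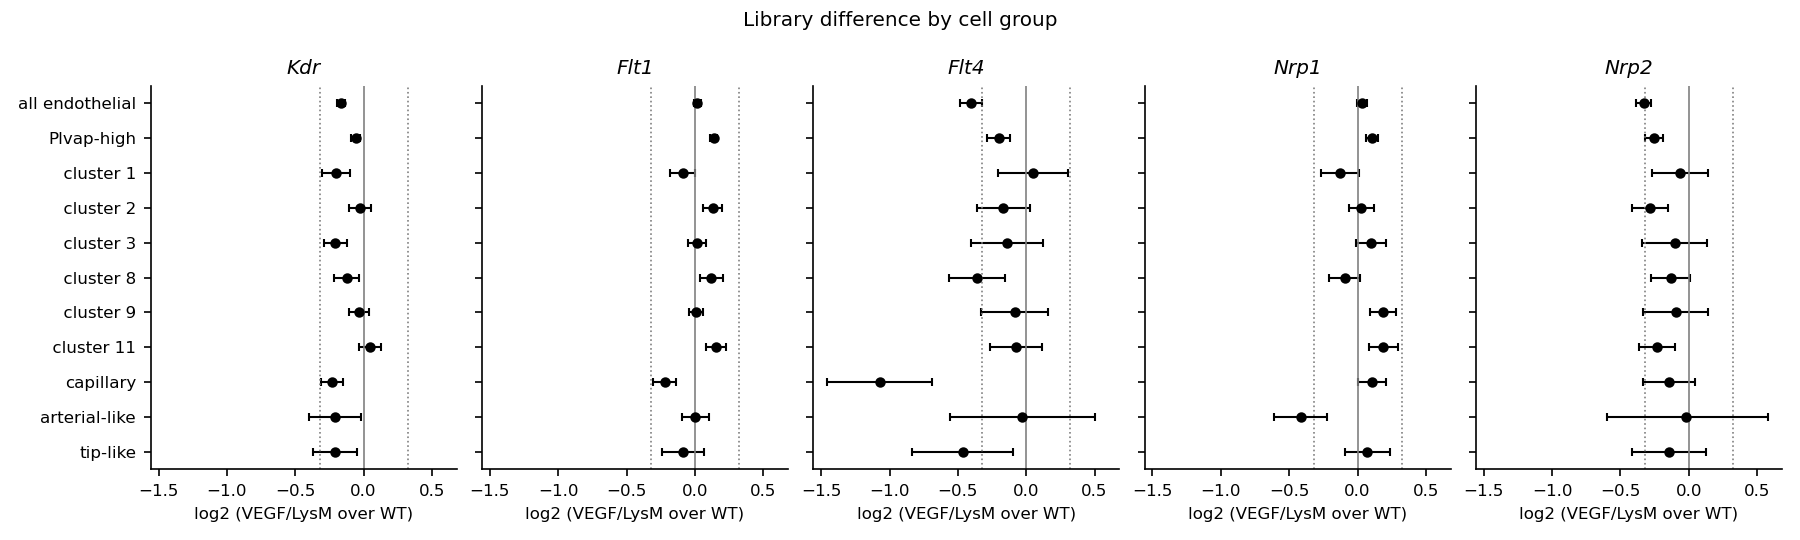
Log2 ratio of VEGF/LysM over WT for the 5 receptor genes in all endothelial cells, in Plvap-high cells and their 6 larger clusters, and in the other larger types; points with exact conditional binomial 95% intervals, solid line 0, dotted lines a log2 ratio of 0.32 in either direction. Most points lie within the dotted lines, and capillary Flt4 lies at -1.07.

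In all endothelial cells most other genes of the pathway had a log2 ratio between the libraries of under 0.32 in size. Of 45 measured genes of VEGF receptor signalling and trafficking, 2 were higher and 3 lower in all endothelial cells (all measured genes 9.85% and 11.4%), with a median log2 ratio of -0.074 beside -0.032 over all measured genes. The small heat shock protein gene Hspb1, a target of the p38 kinase branch, was 236 and 382 CPM (log2 0.69, 0.61 to 0.78). The adaptor Bcar1 was 96.2 and 72.6 CPM (log2 -0.41, -0.56 to -0.25), the endocytic adaptor Epn1 70.8 and 57.9 CPM (log2 -0.29, -0.47 to -0.11) and the motor Myo6 378 and 319 CPM (log2 -0.24, -0.32 to -0.17). Chosen after their values were seen, as the rest of the 5, Rab4a was 9.02 and 13.99 CPM (log2 0.63, 0.19 to 1.08), Prkcb 17.5 and 13.8 CPM (log2 -0.35, -0.71 to 0.020) and Vav2 7.003 and 4.81 CPM (log2 -0.54, -1.16 to 0.069). Ppp3ca (552 and 548 CPM, log2 -0.011, -0.071 to 0.049) and Nfatc1 (38.7 and 38.3 CPM, log2 -0.014, -0.25 to 0.22), of the calcineurin branch, were closest to 0.

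Of 10 measured partners of the neuropilins, 0 were higher and 3 lower (all genes 9.85% and 11.4%), with a median of -0.11. In capillary cells 5 were measured, with 2 higher and 1 lower (all genes 13.7% and 16.5%) and a median of 0.23. The semaphorin genes Sema3c (35.3 and 11.3 CPM, log2 -1.64, -1.99 to -1.31) and Sema3d (87.3 and 60.6 CPM, log2 -0.53, -0.69 to -0.36) were 2 of these, and Sema3a (6.46 and 4.14 CPM, log2 -0.64, -1.30 to 0.0060), named after its value was seen, was the other. Sema3c was lower in each of the 4 larger types, with 36.6 and 11.6 CPM for Plvap-high, 26.7 and 9.86 CPM for capillary, 32.4 and 11.8 CPM for arterial-like and 49.2 and 8.30 CPM for tip-like cells. Sema3g (159.9 and 187 CPM, log2 0.22, 0.12 to 0.33) is an arterial marker and was 684 and 659 CPM in arterial-like cells, and the trafficking adaptor Gipc1 was 27.1 and 30.5 CPM (log2 0.17, -0.094 to 0.44). The plexins Plxna4 (219 and 208 CPM, log2 -0.073, -0.17 to 0.024) and Plxnd1 (592 and 544 CPM, log2 -0.12, -0.18 to -0.063) were closest to 0.

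Of 18 genes known to be induced by VEGF-A in endothelium, 0 were higher and 6 lower in all endothelial cells (all genes 9.85% and 11.4%), with a median of -0.17. In Plvap-high cells 1 was higher and 6 lower (all genes 8.59% and 12%). In capillary cells 14 were measured, with 0 higher and 7 lower (all genes 13.7% and 16.5%) and a median of -0.33. In arterial-like cells 8 were measured, with 0 higher and 4 lower (all genes 16.3% and 17.8%) and a median of -0.28. The tip-like marker list, which shares genes with this one, had a summed level of 1250.1 and 1331 CPM in all endothelial cells. It was 1274 and 1503 CPM in Plvap-high, 656 and 588 CPM in capillary and 714 and 630 CPM in arterial-like cells. The VEGF-A-induced genes that are also tip-like markers are Esm1, Apln, Adm, Angpt2, Kcne3 and Cxcr4. Plvap and Igfbp3 of the VEGF-A-induced list are also fenestrated markers. In all endothelial cells the lower genes included Egr1 (351 and 207 CPM, log2 -0.76, -0.85 to -0.68), Apln (31.9 and 23.1 CPM, log2 -0.47, -0.75 to -0.19), Nrarp (52.5 and 38.7 CPM, log2 -0.44, -0.65 to -0.23) and Adamts1 (299 and 229 CPM, log2 -0.38, -0.47 to -0.30), while Plvap (994 and 1000.1 CPM, log2 0.0082, -0.036 to 0.053) and Hlx (60.1 and 60.8 CPM, log2 0.017, -0.17 to 0.20) were closest to 0. The immediate-early genes, which also respond to tissue digestion, differed in the same direction as this list, and Egr1 is on both. All 6 were detected in both libraries, and their summed level was 1730.5 and 1334 CPM in all endothelial cells and 1426 and 641 CPM in capillary cells. Their part in the list's difference was not tested. Of 12 measured transcription factors upstream of the receptors, 0 were higher and 1 lower (all genes 9.85% and 11.4%), with a median of -0.050. The lower one was Prox1 (13.1 and 9.18 CPM, log2 -0.51, -0.95 to -0.071), the lymphatic master regulator, named after its value was seen. Klf2 was 525 and 627 CPM (log2 0.26, 0.20 to 0.32) and Erg 297 and 263 CPM (log2 -0.17, -0.26 to -0.090). Klf4 (286 and 308 CPM, log2 0.11, 0.024 to 0.19) and Gata2 (99.4 and 94.2 CPM, log2 -0.077, -0.22 to 0.067) differed less, and Fli1 (707 and 697 CPM, log2 -0.020, -0.073 to 0.034) and Mef2c (897 and 917 CPM, log2 0.032, -0.015 to 0.079) were closest to 0.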

How the data were processed

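The authors deposited unnormalised UMI counts for every gene in every cell barcode, made with Cell Ranger 7.0.1 on mm10 per the submitters' processing notes; the file headers name Cell Ranger 7.0.0. Which transcript end was read, and the handling of introns, were not stated in the sources used here. The minimum per cell was 500 UMIs and 300 genes, with up to 15% mitochondrial UMIs, and the highest Scrublet scores were left out at 0.8% of cells per 1000 barcodes, since its automatic threshold called 1 and 4 cells. Counts scaled to 10000 per cell were clustered with Scanpy 1.11.5 (2000 variable genes without the 9 members, 30 components, 15 neighbours, Leiden resolution 1), after a check on simulated counts. A cluster was named where its marker list averaged a log2 excess of at least 1.5, and otherwise called Plvap-high from 700 CPM of Plvap. Both limits were set after the clusters were seen. The members, marker lists, pathway lists and tests were chosen with earlier results of these data known. A gene counted as measured with at least 50 UMIs over both libraries, and a difference was counted from 1.25-fold (log2 0.32). Named were members with at least 20 UMIs over both libraries in a type, in each list the 4 largest ratios among genes of at least 20 CPM and the 2 nearest 0, and the 5 genes most like each receptor. Intervals came from SciPy 1.17.1. Alternatives covered filters, doublets, resolution, scaling, thinning and cell mix. Coordinates are GENCODE M21 (GRCm38).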

Additional observations from a re-analysis of the deposited data

How the results depend on the processing

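Of 179 values recomputed for 29 main results, 138 moved by less than their counting interval (counts by less than 1.5 times), 41 moved further and 0 reversed a called direction. Only log2 ratios past 0.32 in the main setting could be labelled reversed, and counts and co-detection could not. Under that size, the ranges in all endothelial cells crossed 0 for Vegfc (-0.11 to 0.48), Vegfd (-0.32 to 0.33) and Vegfb (-0.15 to 0.20). They also did for Nrp1 (-0.023 to 0.085) and Flt1 (-0.014 to 0.087), while Kdr and Vegfa kept their sign. Among 397 values for 45 other results, 51 moved and 1 reversed, Vegfc in capillary cells at resolution 1.6 (0.18). With vessel types mixed equally, the log2 ratio of VEGF/LysM over WT in all endothelial cells was -0.095 for Kdr, 0.087 for Flt1, -0.26 for Flt4, 0.085 for Nrp1, -0.24 for Nrp2 and -0.081 for Vegfc. An equal mix of clusters, chosen after seeing the data, gave -0.13 for Kdr, -0.21 for Flt4, -0.17 for Nrp2 and -0.11 for Vegfc. Thinning to 1000 UMIs gave -0.52 for Flt4, -0.023 for Nrp1 and -0.51 for Nrp2, and the stricter cell filter -0.45 for Nrp2. Median-ratio scaling gave -0.13 for Kdr and 0.051 for Flt1, with 2 members higher and 1 lower. Means of per-cell CPM gave -0.19 for Kdr and -0.014 for Flt1. In WT, Flt4 in Plvap-high over capillary cells was 2.01 (log2) without doublet removal and 2.10 after thinning, and Nrp2 was 1.15 without doublet removal. Kdr in Plvap-high over arterial-like cells was 1.19 with the stricter filter, 1.34 without doublet removal, 1.31 with members among the variable genes and 1.26 at resolution 1.6. The WT ratio of joint Flt4 and Nrp2 detection to its product was 1.21 at 500 UMIs, 1.21 without thinning and 1.24 with at least 2 UMIs. At a fold of 1.5, 0 members, 0 signalling genes, 2 VEGF-A-induced genes and 0 upstream factors were lower, and 371 of all genes were higher and 379 lower. With at least 1 UMI in each library, 1 neuropilin partner was higher and 5 lower, and 3467 of all genes were higher and 4074 lower. With at least 20 UMIs, 2142 genes were lower. Without the cells that carried lymphatic genes, an alternative chosen after seeing the data, Flt4 in arterial-like cells was -0.12 and Vegfc -0.039. The causes of these moves were not tested. Outside the main results, Flt4 in capillary cells ranged from -1.29 to -0.63, Flt4 in tip-like cells from -0.62 to -0.23, Nrp1 in arterial-like cells from -0.47 to -0.33, Vegfa in Plvap-high cells from -1.23 to -0.83 and Vegfc in capillary cells from -1.23 to 0.18. No tip-like type was found at resolution 0.6, so its results have no value there. No paired analysis was possible because each group was 1 library. Depth limits Vegfa, Vegfb and Vegfd, with 88, 204 and 52 endothelial UMIs in all.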

Other observations

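The few cells outside the larger vessel types also carried members. In the 4 VEGF/LysM cells with pericyte and smooth muscle markers (Notch3, Acta2, Rgs5), Vegfc had 24 UMIs (1142 CPM, 732 to 1699.8), a level above the interval of arterial-like cells in that library. The 4 WT cells of this kind had 2 UMIs of Vegfc. Myeloid-like cells had 1440.2 and 1201 CPM of Kdr and 1687 and 1821 CPM of Flt1 in WT and VEGF/LysM, with 5443 and 5054 CPM of the pan-endothelial markers, against 10182 and 9732 CPM in endothelial cells. Esm1 was detected in 30.6% of Plvap-high WT cells with Kdr and 21.7% of those without, and in 40.4% and 23.3% in VEGF/LysM, each after thinning to 1000 UMIs.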
